A study of Mus musculus with 6 samples.

Results

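The 7 T-box genes Tbx1, Tbx2, Tbx3, Tbx4, Tbx5, Tbx18 and Tbx20 were followed in cells enriched for endothelium from mouse embryos at embryonic day 9.5. They are 7 of the 18193 genes measured by a probe set of their own. They were picked by name because T-box factors pattern the heart, the pharynx, the limbs and the allantois. Earlier results of these data were known when they were picked. The study compared cells of heart tube, of caudal-half tissue of the embryo and of yolk sac. Each tissue of mixed-background mice was freshly isolated and sorted by flow cytometry for CD31, without CD41 and CD45, and gave 2 independent biological samples (6 arrays in all, 2 per tissue). None of the groups carried an engineered allele or a treatment named in the labels, and how many embryos gave a sample is not stated there.

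T-box factors are transcription factors that share a DNA-binding domain, the T-box, named after the mouse gene Brachyury. Some of them mainly activate and others mainly repress transcription, and because they recognise much the same DNA motif they can compete for the same genes. In the heart, Tbx5 promotes chamber genes together with Gata4 and Nkx2-5, Tbx2 and Tbx3 repress the same programme in the atrioventricular canal and the conduction system, and Tbx20 acts in both endocardium and myocardium.

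Levels are the natural log of the deposited signal, which has the range of RMA values on a log2 scale and is read here as log2. If the deposited signal is linear instead, every difference and its SE grow by a factor of 1.44, and the tests of no difference do not change. The 27 control probe sets against bacterial genes gave values of 1.33 to 4.03 over the 6 arrays, and a signal in that window is called weak and described as within the bacterial control range. Of the 16 probe sets of the T-box genes, 4 lay above it on every array, 8 on some arrays and 4 on none. All 10 endothelial markers, such as Pecam1 (CD31) and Cdh5, lay above that range on every array, and Ptprc (CD45) lay within it on every array. Itga2b (CD41) did not, with 6.81 and 6.93 in heart tube, 6.80 and 6.42 in caudal-half tissue, and 8.37 and 8.18 in yolk sac. A difference passed, or was called, where its limma p adjusted over all genes was under 0.05. Of all 18193 genes, 2.86% passed higher and 2.65% lower in heart tube than in caudal-half tissue. Against yolk sac, heart tube had 5.14% higher and 6.67% lower, and caudal-half tissue 4.22% and 4.86%. The medians of all genes were -0.08, -0.06 and 0.02 in these comparisons. Counts in the marker and gene lists below are to be read beside these shares. The lists were chosen with earlier results known, so the counts are a description. Replicate arrays correlated at r = 0.981 to 0.986 over all probe sets and arrays of different tissues at 0.946 to 0.969. Each sample is a mixture of cells, so fewer cells of a type and less RNA per cell cannot be told apart.

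Tbx20 separated all 3 tissues. It was highest in heart tube and lowest in caudal-half tissue, and the yolk sac held a substantial level in between. Tbx20 (Entrez 57246, probe set 1453351_at) read 12.18 and 11.95 in heart tube, 5.35 and 5.76 in caudal-half tissue, and 9.31 and 9.31 in yolk sac. Every array of one tissue was apart from every array of the others, and the means were 12.06 ± 0.16, 5.56 ± 0.30 and 9.31 ± 0.00254 (SD, n = 2 each). Tbx20 was 6.51 ± 0.20 (SE) higher in heart tube than in caudal-half tissue (limma adjusted p = 0.000107), the second-largest upward difference of all genes. Against the yolk sac the heart tube was higher by 2.75 ± 0.20 (adjusted p = 0.000626). The caudal-half tissue lay below yolk sac by -3.76 ± 0.20 (adjusted p = 0.000411), which ranked 51 among the genes lower in caudal-half tissue. Leaving out any 1 of the 6 arrays kept these 3 calls, with differences of 6.30 to 6.72, 2.64 to 2.87 and -3.96 to -3.55.

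**Figure D1:**
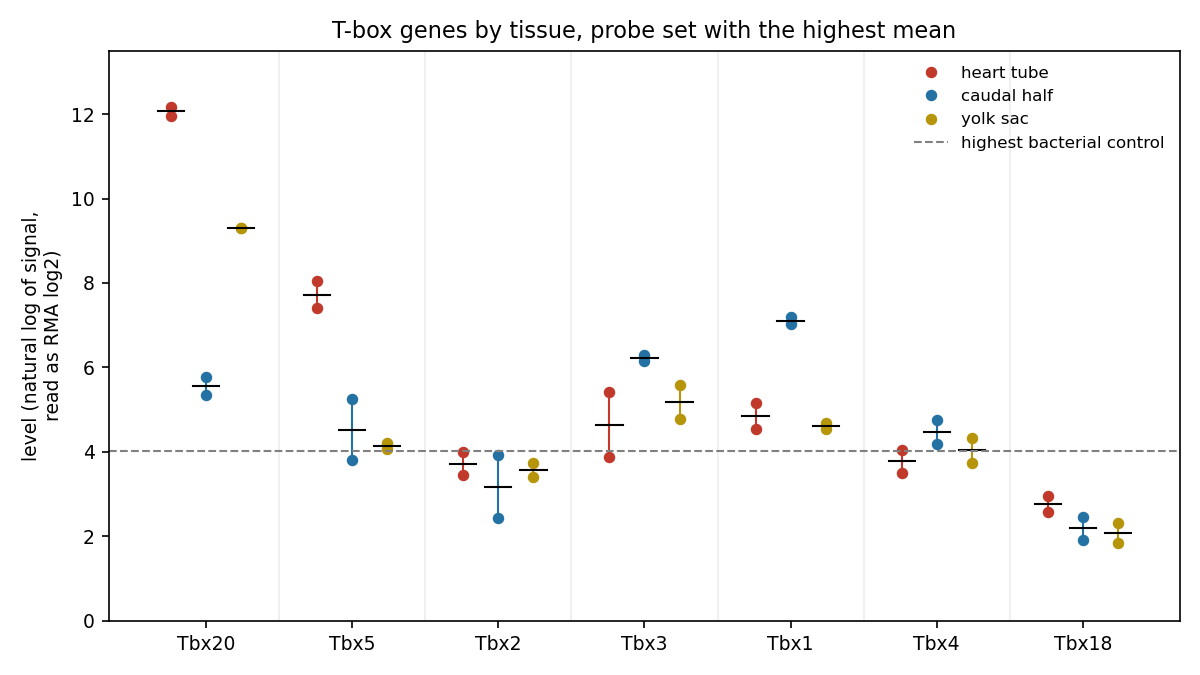
Level of each T-box gene on every array (y axis, natural log of signal read as log2), by its probe set with the highest mean over 6 arrays. Points are arrays (heart tube, caudal-half tissue, yolk sac from left to right within a gene), the black bar is the mean of 2 arrays and the dashed line is the highest bacterial control value, 4.03. Tbx20 stands at 12.06, 5.56 and 9.31 in the 3 tissues, and no point of Tbx2 or Tbx18 lies above the line.

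Both other probe sets of Tbx20 gave the same order of tissues. Probe set 1425158_at read 12.14 and 12.11 in heart tube, 4.91 and 5.13 in caudal-half tissue, and 8.75 and 8.52 in yolk sac. Probe set 1422219_a_at was dimmer, with 9.88 and 9.78 in heart tube, 2.58 and 3.83 in caudal-half tissue, and 5.60 and 6.23 in yolk sac. Its caudal arrays lay within the bacterial control range, whereas the caudal arrays of the other two probe sets lay above it. All 3 probe sets passed in all 3 comparisons of a fit over 34945 named probe sets, in which 4.15% passed between heart tube and caudal-half tissue, 9.78% between heart tube and yolk sac and 6.92% between caudal-half tissue and yolk sac. For 1422219_a_at the difference of -2.71 between caudal-half tissue and yolk sac (adjusted p = 0.0176) lost its call without the first caudal array or without either yolk sac array, with an adjusted p of up to 0.0752. On the way from the caudal to the heart tube mean, the yolk sac mean stood at 57.7% of the distance in 1453351_at, at 50.8% in 1425158_at and at 40.8% in 1422219_a_at, the last measured from a caudal mean within the bacterial control range and so not an exact position.

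Markers of endocardium and of other cell types moved along with Tbx20 in part. Of 5 endocardial markers, 4 were higher in heart tube than in caudal-half tissue and 3 higher than in yolk sac, with mean levels of 8.70 and 8.83 in heart tube, 6.10 and 6.20 in caudal-half tissue, and 6.48 and 6.29 in yolk sac. Of 14 cardiomyocyte markers, 6 were higher in heart tube than in caudal-half tissue and 0 lower, and 8 were higher than in yolk sac and 0 lower. The summed level of these 14 genes was 93.4 and 93.3 in heart tube, 69.6 and 69.9 in caudal-half tissue, and 65.0 and 61.0 in yolk sac, and 12 and 12, 11 and 10, and 9 and 8 of them lay above the bacterial controls on these arrays. The 6 ranged from 4 to 8 and the 8 from 5 to 8 when single arrays were left out. Between caudal-half tissue and yolk sac 1 of the 14 was called, with a median difference of 0.11. That gene was Tnnt2, cardiac troponin T, which read 10.05 and 10.02 in heart tube, 8.20 and 8.61 in caudal-half tissue, and 5.19 and 4.12 in yolk sac, above the bacterial controls on every array. Tnnt2 was higher in heart tube than in yolk sac by 5.38 (adjusted p = 0.000405) and in caudal-half tissue than in yolk sac by 3.75 (adjusted p = 0.00253), and its difference of 1.63 between heart tube and caudal-half tissue missed the threshold (adjusted p = 0.0523). Nkx2-5, a transcription factor of cardiac muscle, was within the bacterial control range on all 6 arrays.

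Markers of endothelium, blood and the tissues around the vessels differed too. Of the 10 endothelial markers, 3 were lower and 1 higher in heart tube than in caudal-half tissue (median -0.66), and 5 were lower and 0 higher than in yolk sac (median -0.81), while Tbx20 and Tbx5 were higher in heart tube. Their mean level was 9.26 and 9.29 in heart tube, 9.78 and 9.86 in caudal-half tissue, and 10.10 and 10.18 in yolk sac. Leaving out any 1 array brought the 3 down to 0 or 1, and leaving out an array of heart tube or the second yolk sac array brought the 5 down to 3. Of 5 erythroid markers, 3 were lower in heart tube than in caudal-half tissue (0 to 3 without single arrays), 3 lower and 1 higher in heart tube than in yolk sac, and 3 lower in caudal-half tissue than in yolk sac. Of 10 mesenchyme markers, 6 were higher and 0 lower in heart tube than in caudal-half tissue, and 3 higher and 4 lower than in yolk sac. In caudal-half tissue 6 were lower and 2 higher than in yolk sac, and the 2 became fewer without any 1 array. The 10 summed to 74.7 and 74.4 in heart tube, 61.8 and 60.3 in caudal-half tissue, and 79.9 and 77.5 in yolk sac. Of 8 visceral endoderm markers, 0 were higher and 1 lower in heart tube than in caudal-half tissue, and 0 higher and 7 lower than in yolk sac. In caudal-half tissue 0 were higher and 7 lower than in yolk sac. The 8 summed to 34.9 and 34.7 in heart tube, 37.5 and 37.2 in caudal-half tissue, and 76.4 and 76.3 in yolk sac. The part of any of these cells in the level of Tbx20 was not tested.

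The genes whose profile lay closest to that of Tbx20 were picked by likeness over these same 6 arrays. Their intermediate yolk sac level therefore largely follows from the choice and is a description. Likeness was measured as the root mean square difference after each gene's own mean was taken off. The 5 closest were Tnc, an extracellular matrix protein (0.93), Rnd2 (0.98), Nrg1, the neuregulin ligand of ErbB receptors (1.13), Cdo1, a cysteine dioxygenase (1.13), and Vcan, the proteoglycan versican of cardiac jelly (1.13). Tnc, for example, averaged 9.29 in heart tube, 4.83 in caudal-half tissue and 8.32 in yolk sac. Nrg1 averaged 6.76, 2.81 and 5.88 in the same 3 tissues, its caudal arrays being within the bacterial control range. The distance grows with a gene's own range, so it is not compared between Tbx20 and the other T-box genes. The profiles of the 5 genes correlated with that of Tbx20 at r = 0.915 to 0.988 over the 6 arrays. For the 5 genes closest to Tbx5 r was 0.968 to 0.979, and for those closest to Tbx1 0.956 to 0.989. High values follow from the choice by likeness.

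**Figure D2:**
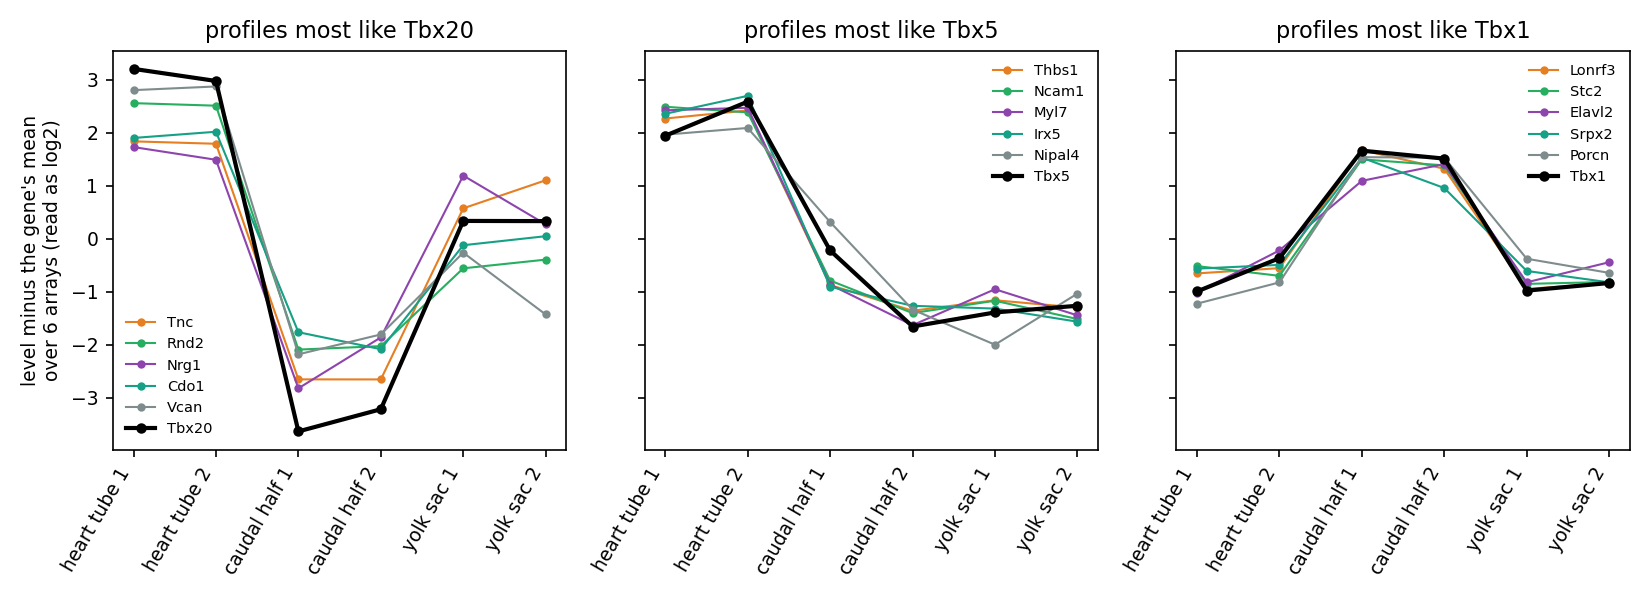
Profiles of Tbx20, Tbx5 and Tbx1 (thick black lines) with the 5 genes closest to each, over the 6 arrays (x axis). The y axis is the level minus the gene's mean over 6 arrays, read as log2, and each point is 1 array. Tbx20 is lowest on both caudal arrays and lies in between on the yolk sac arrays. Its neighbours do the same, being chosen by likeness over these arrays.

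Because Tbx20 and Tbx1 marked different tissues, the sequence before their transcription starts is shown for both. RefSeq promoter windows on GRCm38.p6 were at hand for 4 of the 7 genes (Tbx20, Tbx1, Tbx4 and Tbx18), and Tbx1 has 2 annotated starts. The 250 bases before the start read as follows, 5′ to 3′ on the gene's strand, all in lower case because none of the motifs searched was found that capitals could mark.
Tbx20, chr9:24774304-24774553, minus strand: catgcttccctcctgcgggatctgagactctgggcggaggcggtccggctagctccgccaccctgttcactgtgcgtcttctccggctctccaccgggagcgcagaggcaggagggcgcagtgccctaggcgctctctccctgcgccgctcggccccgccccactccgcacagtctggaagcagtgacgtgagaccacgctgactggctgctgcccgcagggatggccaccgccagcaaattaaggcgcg
Tbx1, first window, chr16:18588900-18589149, minus strand: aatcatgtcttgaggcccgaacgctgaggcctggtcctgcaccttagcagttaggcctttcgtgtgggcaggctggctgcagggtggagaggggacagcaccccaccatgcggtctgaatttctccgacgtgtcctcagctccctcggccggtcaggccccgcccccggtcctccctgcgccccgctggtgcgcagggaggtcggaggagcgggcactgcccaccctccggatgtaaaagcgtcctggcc
Tbx1, second window, chr16:18590672-18590921, minus strand: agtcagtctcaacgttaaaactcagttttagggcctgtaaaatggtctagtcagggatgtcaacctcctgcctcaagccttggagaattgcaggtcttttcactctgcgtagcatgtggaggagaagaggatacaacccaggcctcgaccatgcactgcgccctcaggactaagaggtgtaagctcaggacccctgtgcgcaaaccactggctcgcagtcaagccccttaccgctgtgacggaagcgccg
The 3 short motifs searched, on both strands, were GGTGTG (T-box half-site), GATAA (GATA factors) and TNAAGTG (NKX2 factors). They occur in 16.3%, 22.6% and 10.1% of the 32851 RefSeq windows of this length, and in 0 of these 3 or of the Tbx4 and Tbx18 windows. The bases G and C made up 68.8% of the Tbx20 window, and 67.2% and 54.4% of the first and second Tbx1 windows. The absence of a match says only that these letters are not in this window.

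Tbx5, the activator of chamber genes in the atria and left ventricle, was higher in heart tube than in both other tissues. Tbx5 (Entrez 21388, probe set 1425695_at) read 7.40 and 8.04 in heart tube, 5.24 and 3.81 in caudal-half tissue, and 4.07 and 4.20 in yolk sac. The means were 7.72 ± 0.45, 4.52 ± 1.01 and 4.13 ± 0.09 (SD, n = 2 each). Both heart tube arrays were above all others, the caudal arrays spread over 1.43, and the second of them was within the bacterial control range. The heart tube exceeded caudal-half tissue by 3.20 ± 0.46 (adjusted p = 0.0137) and the yolk sac by 3.59 ± 0.46 (adjusted p = 0.00516), and the second of these ranked 38 in its direction among all genes. Without the first heart tube array the call against caudal-half tissue was lost at an adjusted p of 0.0532, and without the second at 0.0867. Caudal-half tissue and yolk sac differed by 0.39 (95% interval -0.73 to 1.50, adjusted p = 0.691).

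The dimmer probe set of Tbx5, 1425694_at, was also higher in heart tube, at the edge of detection. It read 4.17 and 4.07 in heart tube, 2.35 and 2.35 in caudal-half tissue, and 2.68 and 2.39 in yolk sac. Both other tissues were thus within the bacterial control range. The 2 caudal values were identical and so added nothing to the spread on which the tests of this probe set rest. The heart tube was higher by 1.77 than caudal-half tissue (adjusted p = 0.00506) and by 1.58 than yolk sac (adjusted p = 0.00424). The first of these missed the threshold without the first heart tube array (adjusted p = 0.0506). Over the 6 arrays the 2 probe sets of Tbx5 correlated at r = 0.932, and those of Tbx20 at r = 0.996 and 0.975 with the one used. Such values describe 6 arrays of 3 tissues and hold the differences between tissues.

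The 5 genes closest in profile to Tbx5 were Thbs1, a matricellular thrombospondin (0.34), Ncam1, a cell adhesion molecule (0.37), Myl7, the atrial myosin light chain (0.38), Irx5, an Iroquois homeobox factor (0.39), and Nipal4 (0.42). Myl7, itself among the cardiomyocyte markers, averaged 8.03 in heart tube, 4.34 in caudal-half tissue and 4.39 in yolk sac. The cardiomyocyte sum given for Tbx20 was higher on both heart tube arrays than elsewhere, as Tbx5 was, and its part in the level of Tbx5 was not tested.

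Tbx2, a repressor of chamber genes in the atrioventricular canal and outflow tract, was at the level of the bacterial controls throughout. Its only probe set (Entrez 21385, 1422545_at) read 3.99 and 3.44 in heart tube, 3.93 and 2.43 in caudal-half tissue, and 3.73 and 3.41 in yolk sac. All 6 arrays overlapped across tissues, and none exceeded 4.03. The heart tube differed from caudal-half tissue by 0.54 (95% interval -0.61 to 1.69) and from yolk sac by 0.15 ± 0.48 (SE), and the caudal-half tissue from yolk sac by -0.39 (-1.54 to 0.76). With a signal this weak, differences of this size were not detectable, and their sign turned when single arrays were left out.

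Tbx3, the related repressor of the conduction system, had 5 probe sets that did not give 1 order of tissues. All 5 averaged lower in heart tube than in caudal-half tissue (-1.58 to -0.22), but none passed there by itself with all arrays. The brightest of them (Entrez 21386, 1448029_at) read 3.87 and 5.41 in heart tube, 6.29 and 6.15 in caudal-half tissue, and 4.77 and 5.57 in yolk sac. Both caudal arrays were above the other four, and the 2 heart tube arrays were 1.54 apart. The differences of -1.58 ± 0.51 between heart tube and caudal-half tissue (adjusted p = 0.155) and of 1.05 ± 0.51 between caudal-half tissue and yolk sac (adjusted p = 0.277) missed the threshold. Without the second heart tube array the first of these became -2.35 and passed (adjusted p = 0.0456). The mean of all 5 probe sets also passed, with -0.86 for heart tube minus caudal-half tissue (adjusted p = 0.0218) and -0.75 for heart tube minus yolk sac (adjusted p = 0.0214). The largest part of the latter came from probe set 1437479_x_at (-2.06), whose yolk sac arrays read 6.15 and 3.49. Probe set 1444594_at went the other way (0.15).

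Among the other 4 probe sets of Tbx3, the lowest adjusted p in any comparison of the limma fit over probe sets was 0.0767. Probe set 1439567_at averaged 4.63 in heart tube, 5.43 in caudal-half tissue and 4.95 in yolk sac, and 1445757_at averaged 3.64, 4.32 and 4.63. Both were lowest in heart tube, and they disagreed over whether caudal-half tissue or yolk sac was higher. Probe set 1437479_x_at read 6.15 on the first yolk sac array and 3.49 on the second, and its difference between heart tube and yolk sac ranged from -3.39 to -0.74 when single arrays were left out. Probe set 1444594_at stayed within the bacterial control range on all arrays. Correlations with the brightest probe set over 6 arrays were only 0.00 to 0.37.

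**Figure D3:**
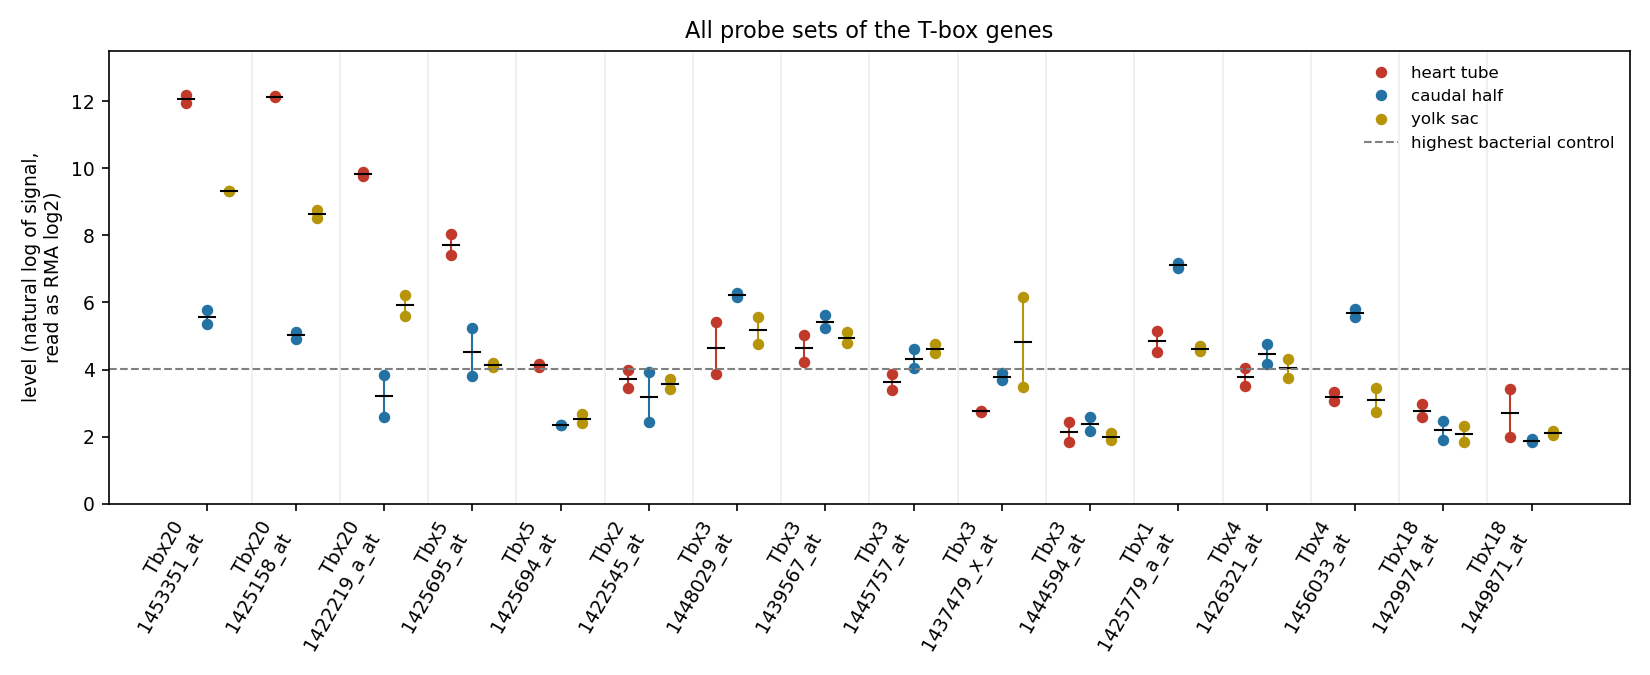
All 16 probe sets of the 7 T-box genes on every array (y axis, natural log of signal read as log2), each gene's probe sets running from the highest to the lowest mean. Points are arrays, black bars means of 2 arrays, and the dashed line is the highest bacterial control value, 4.03. The 3 Tbx20 probe sets share 1 order of tissue means, whereas those of Tbx5, Tbx3, Tbx4 and Tbx18 do not. Both Tbx5 probe sets are highest in heart tube and both Tbx4 probe sets in caudal-half tissue.

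Tbx1, a factor of pharyngeal mesoderm and the second heart field that is needed for outflow tract and pharyngeal artery development, was higher in caudal-half tissue than in both other tissues. Its only probe set (Entrez 21380, 1425779_a_at) read 4.53 and 5.16 in heart tube, 7.18 and 7.03 in caudal-half tissue, and 4.55 and 4.69 in yolk sac. Both caudal arrays were apart from all others, while heart tube and yolk sac arrays overlapped, and all 6 lay above the bacterial controls. The heart tube was lower than caudal-half tissue by -2.26 ± 0.24 (adjusted p = 0.00432), and the caudal-half tissue was higher than yolk sac by 2.49 ± 0.24 (adjusted p = 0.00271). These differences ranked 103 and 49 in their directions among all genes. Both calls stood without any 1 of the 6 arrays, at adjusted p of up to 0.0405 and 0.0278. Heart tube and yolk sac differed by 0.23 (95% interval -0.35 to 0.80, adjusted p = 0.608).

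The 5 genes closest to Tbx1 in profile were Lonrf3, a ring finger protein (0.18), Stc2, the secreted stanniocalcin (0.26), Elavl2, a neuronal RNA-binding protein (0.30), Srpx2, a secreted sushi-repeat protein (0.33), and Porcn, the acyltransferase of WNT ligands (0.34). Porcn averaged 4.59 in heart tube, 7.14 in caudal-half tissue and 5.10 in yolk sac. Lonrf3 averaged 3.08, 5.17 and 2.79, within the bacterial control range outside the caudal-half tissue.

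Tbx4, a factor of the hindlimb, the lung mesenchyme and the allantois, depended on the probe set. The one with the higher mean (Entrez 21387, 1426321_at) read 3.51 and 4.04 in heart tube, 4.75 and 4.18 in caudal-half tissue, and 4.32 and 3.74 in yolk sac. Yolk sac arrays overlapped with those of both other tissues, and no difference passed (-0.69 for heart tube minus caudal-half tissue, 95% interval -1.43 to 0.06, and 0.43 for caudal-half tissue minus yolk sac, -0.31 to 1.18). The other, 1456033_at, had a mean over 6 arrays of 3.99, beside 4.09 for the first. It read 3.32 and 3.05 in heart tube, 5.57 and 5.80 in caudal-half tissue, and 3.45 and 2.73 in yolk sac. Here only the caudal arrays rose out of the bacterial control range.

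With probe set 1456033_at, Tbx4 was lower in heart tube than in caudal-half tissue by -2.49 ± 0.28 (adjusted p = 0.0065) and higher in caudal-half tissue than in yolk sac by 2.59 ± 0.28 (adjusted p = 0.005). Leaving out the second heart tube array moved the first to an adjusted p of 0.051, and the second kept its call without any 1 array. The mean of both Tbx4 probe sets also passed, at -1.59 (adjusted p = 0.011) and 1.51 (adjusted p = 0.00986). The 2 probe sets correlated at r = 0.664 over the 6 arrays.

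Tbx18, a factor of the proepicardium, the sinus horns and the somites, stayed within the bacterial control range with both probe sets on all 6 arrays. Probe set 1429974_at (Entrez 76365) read 2.58 and 2.96 in heart tube, 1.91 and 2.46 in caudal-half tissue, and 2.32 and 1.84 in yolk sac. Probe set 1449871_at read 2.00 and 3.43 in heart tube, 1.82 and 1.94 in caudal-half tissue, and 2.03 and 2.15 in yolk sac. In 1429974_at both heart tube arrays were above the rest, by 0.59 on average against caudal-half tissue (95% interval -0.07 to 1.25) and 0.69 against yolk sac (0.04 to 1.35), and neither difference passed (adjusted p = 0.309 and 0.172). The epicardial gene Wt1 read 3.61 and 3.69 in heart tube, 3.48 and 4.27 in caudal-half tissue, and 3.52 and 4.97 in yolk sac. Of 8 epicardial and proepicardial markers, 1 was higher and 0 lower in heart tube than in caudal-half tissue, and 1 higher and 2 lower than in yolk sac. Between caudal-half tissue and yolk sac, 0 were higher and 2 lower. The list medians were -0.39, -0.68 and -0.48, so most of the list did not rise in heart tube. The 1 higher in heart tube was Tcf21, at 6.81, 2.73 and 2.74 in the 3 tissues. The summed level of the 8 was 33.3 and 30.4 in heart tube, 30.2 and 34.4 in caudal-half tissue, and 36.5 and 37.7 in yolk sac. On the heart tube arrays 4 and 2 of the 8 lay above the bacterial controls.

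By comparison of tissues, 3 of the 7 genes passed between heart tube and caudal-half tissue (Tbx20 and Tbx5 higher, Tbx1 lower), where 5.51% of all genes passed, 2.86% higher and 2.65% lower. Between heart tube and yolk sac 2 passed (Tbx20 and Tbx5, both higher) against 11.8% of all genes, 5.14% higher and 6.67% lower. Between caudal-half tissue and yolk sac 2 passed (Tbx1 higher, Tbx20 lower) against 9.08% of all genes, 4.22% higher and 4.86% lower. The median difference of the 7 genes was 0.54, 0.23 and 0.39 in these comparisons, beside -0.08, -0.06 and 0.02 over all genes. Since the genes were chosen with results of these data known, these shares are a description. Tbx20 passed in all 3 comparisons, Tbx5 and Tbx1 in 2 each, and Tbx2, Tbx3, Tbx4 and Tbx18 in none with the probe set of highest mean. Without either heart tube array Tbx5 drops out of the first comparison, and without the second one Tbx3 enters it.

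**Figure D4:**
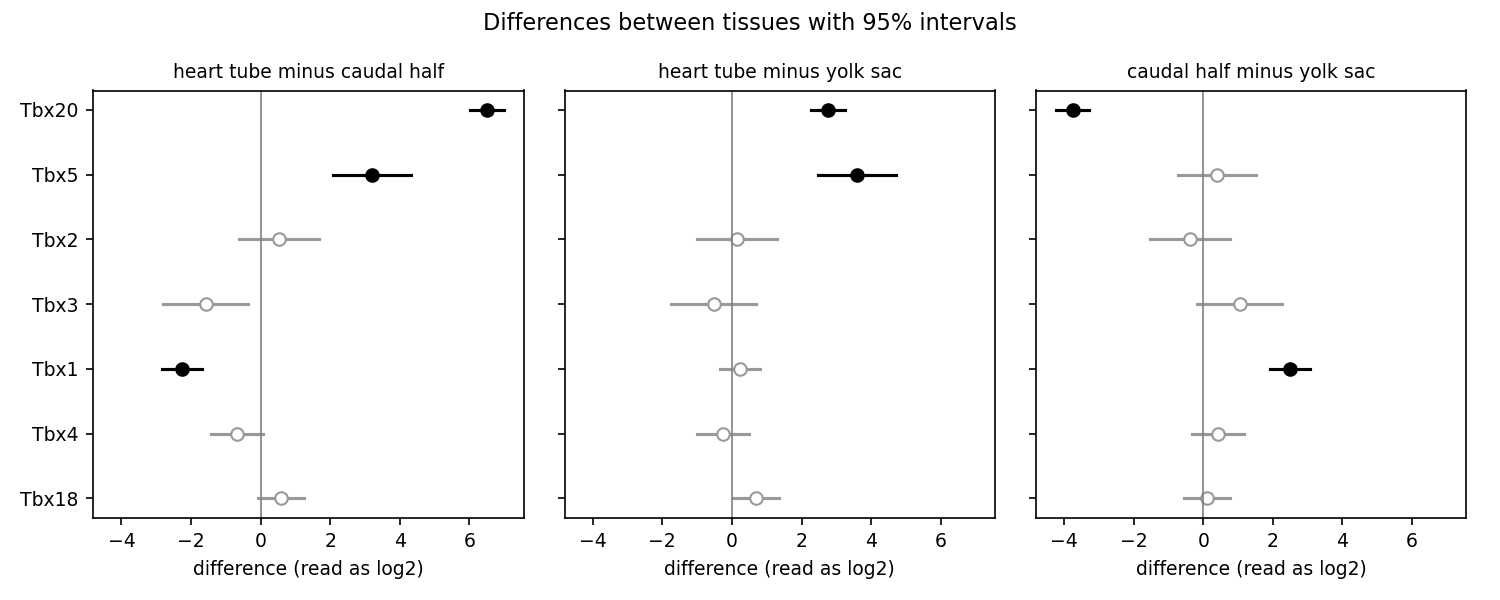
Difference of each T-box gene between tissues (x axis, read as log2) with its 95% interval from the fit over all genes, in 3 panels. Filled black points have an adjusted p under 0.05 over all genes and open grey points do not. Tbx20 lies at 6.51, 2.75 and -3.76 in the 3 panels, and Tbx1 at -2.26, 0.23 and 2.49.

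No other measured T-box gene passed. Of 10 further T-box genes 8 were measured (Eomes, Tbr1, Tbx6, Tbx15, Tbx19, Tbx21, Tbx22 and Mga). In limma 0 of the 8 passed in any comparison, and 0 had an unadjusted p under 0.05. Of all genes, 5.51% passed between heart tube and caudal-half tissue and 11.8% between heart tube and yolk sac. Between caudal-half tissue and yolk sac 9.08% passed. Beside these shares, 0 calls among 8 genes, most of them weak, do not set this list apart from other genes. Mga, which joins a T-box to a MYC-type domain, averaged 8.53 in heart tube, 8.51 in caudal-half tissue and 8.12 in yolk sac. The other 7 had tissue means of 1.29 to 4.10, at or within the bacterial control range.

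Partners with which T-box factors bind DNA or repress it differed from one another. Of 19 such genes, 5 were higher and 2 lower in heart tube than in caudal-half tissue, 8 higher and 0 lower than in yolk sac, and 5 higher and 2 lower in caudal-half tissue than in yolk sac, with medians of -0.03, 0.49 and 0.26. When 1 array was left out, the 8 became 4 to 7, and the 5 and 2 of the last comparison became 0 to 3 and 0 to 1. Gata4, a partner of Tbx5 and Tbx20, averaged 10.10 in heart tube, 4.28 in caudal-half tissue and 5.20 in yolk sac, and Hand2 averaged 8.86, 4.61 and 3.93. Gata4 had the same order of tissues as Tbx20, though its caudal deficit against yolk sac missed the threshold (-0.92, adjusted p = 0.0882). Gata6 averaged 9.13, 6.47 and 7.63, again in that order. Its caudal deficit against yolk sac (-1.16, adjusted p = 0.0321) was lost without either heart tube array, either caudal array or the second yolk sac array (adjusted p up to 0.135), and with the replicate number as a block (adjusted p = 0.0612). Nkx2-5, the partner of Tbx5 and Tbx20 in cardiac muscle, averaged 3.17, 3.62 and 3.41, within the bacterial control range.

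Genes that T-box factors regulate in chamber muscle were mixed. Of 14 measured, 3 were higher and 1 lower in heart tube than in caudal-half tissue, 6 higher and 2 lower than in yolk sac, and 2 higher and 1 lower in caudal-half tissue than in yolk sac, with medians of 0.22, 0.77 and 0.01. Both counts of genes higher in heart tube moved when single arrays were left out, and both were lowest without an array of heart tube. Hey2, which restricts Tbx2 to the atrioventricular canal, was higher in heart tube by 2.30 and 2.32 than in caudal-half tissue and yolk sac. Gja5, the connexin that Tbx5 activates and Tbx2 and Tbx3 repress in muscle, and that arterial endothelium also makes, was lower in heart tube (6.64) than in caudal-half tissue (9.41) and the yolk sac (10.54), while Tbx5 was higher there. Mycn, repressed by Tbx2 and needed for chamber growth, was higher in caudal-half tissue than in yolk sac by 1.62.

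Of the 7 lists, that of cushion and atrioventricular canal genes had the most genes called higher in heart tube, where Tbx20 was higher too. Of 16 genes, 9 were higher and 0 lower in heart tube than in caudal-half tissue, and 9 higher and 1 lower than in yolk sac. In caudal-half tissue 3 were higher and 2 lower than in yolk sac (medians 1.75, 2.05 and 0.19). Over all genes, 2.86% and 2.65%, 5.14% and 6.67%, and 4.22% and 4.86% passed in these directions (medians -0.08, -0.06 and 0.02). Without single arrays the counts of genes higher in heart tube ran from 6 to 9 and from 8 to 9, and those of the last comparison from 1 to 3 higher and 1 to 4 lower. Has2, the hyaluronan synthase of cardiac jelly, and Sox9, a factor of cushion mesenchyme, averaged 9.94 and 10.44 in heart tube, 4.25 and 6.08 in caudal-half tissue, and 3.76 and 5.71 in yolk sac. The 2 genes of this list that were lower in caudal-half tissue than in yolk sac, as Tbx20 was, were Postn, the matrix protein periostin (-2.55, adjusted p = 0.00176), and Bmp2, the signal that induces Tbx2 and cushion formation (-2.53, adjusted p = 0.0103). Bmp2 lost its call without the first yolk sac array (adjusted p = 0.0525).

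Genes linked to Tbx1, Tbx4 or the sinus venosus held calls in both directions over the 3 comparisons. Of 10 genes linked to Tbx1, 2 were higher and 3 lower in heart tube than in caudal-half tissue, 4 higher and 2 lower than in yolk sac, and 4 higher and 0 lower in caudal-half tissue than in yolk sac (medians -0.25, 0.07 and 0.63). Without single arrays the first 2 counts ran from 0 to 2 and 1 to 3, with 0 higher once any array of heart tube or caudal-half tissue was left out, the 2 lower than in yolk sac from 1 to 2, and the last 4 from 2 to 4. Foxc2, a forkhead factor that activates Tbx1, averaged 9.94 in heart tube, 8.95 in caudal-half tissue and 3.07 in yolk sac, so the heart tube had Foxc2 with a low level of Tbx1. Of 8 genes linked to Tbx4, 1 was higher and 3 lower in heart tube than in caudal-half tissue, 0 higher and 3 lower than in yolk sac, and 3 higher and 1 lower in caudal-half tissue than in yolk sac (medians -0.41, -0.47 and 0.36). With 1 array left out, the 1 higher in heart tube than in caudal-half tissue ran from 0 to 1 and the 3 lower in heart tube than in yolk sac from 1 to 3. The posterior genes Hoxd9 and Hoxc10 led those lower in heart tube than in caudal-half tissue, at -5.07 and -4.63, whereas Pitx1, a hindlimb activator of Tbx4, did not pass (-0.40, adjusted p = 0.339). Of 5 measured sinus venosus and pacemaker genes, 0 were higher and 1 lower in heart tube than in caudal-half tissue, 2 higher and 1 lower than in yolk sac, and 2 higher and 0 lower in caudal-half tissue than in yolk sac (medians -0.28, -0.05 and 0.65). Without single arrays the 1 lower than in caudal-half tissue ran from 0 to 1, the 2 higher in heart tube than in yolk sac from 0 to 2, and the last 2 from 0 to 1. Bmp4 was the one lower in heart tube than in yolk sac (-1.64, adjusted p = 0.00449).

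**Figure D5:**
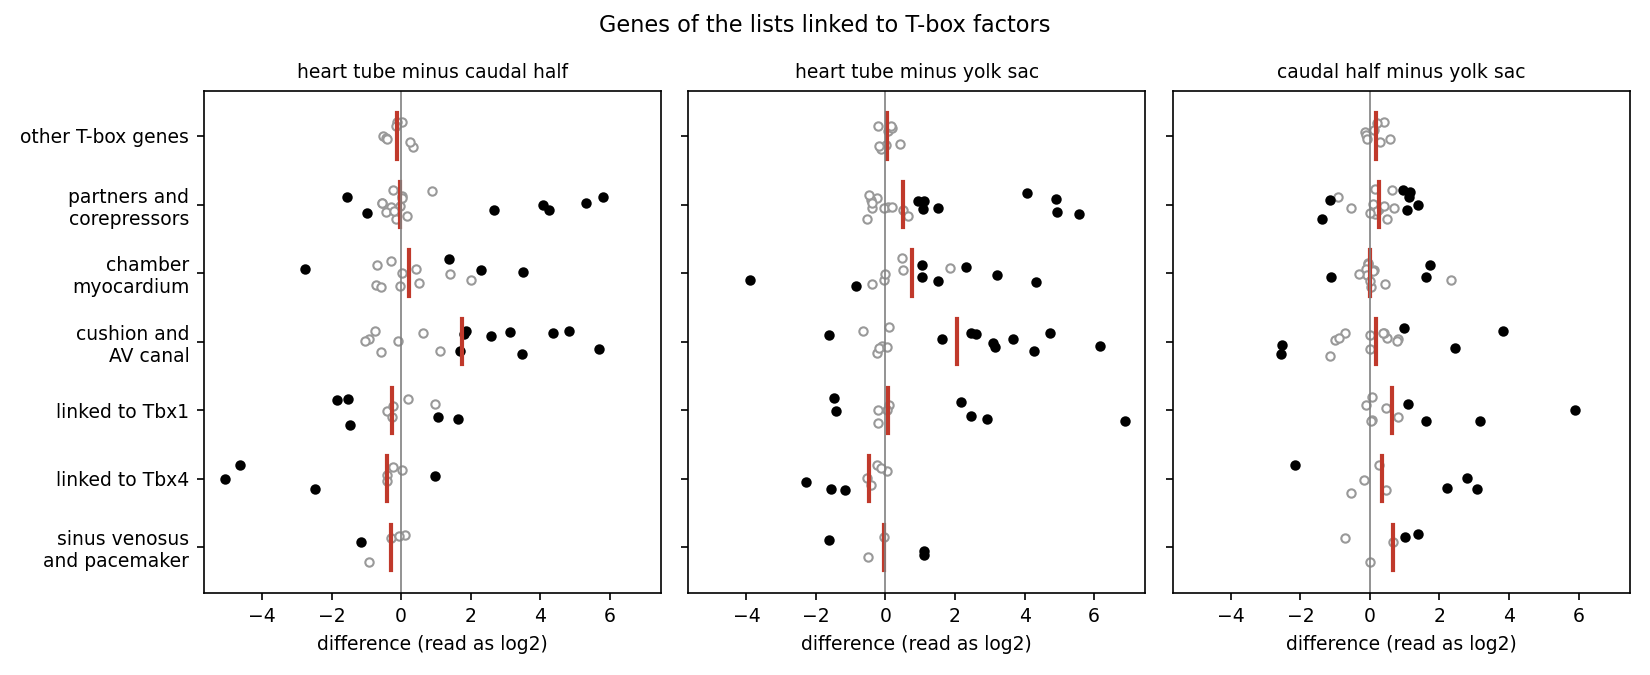
Differences between tissues (x axis, read as log2) of the genes in the 7 lists linked to T-box factors, in 3 panels. Each point is a gene, filled where its adjusted p over all genes is under 0.05, and the red bar is the list's median. In the cushion and atrioventricular (AV) canal list the medians are 1.75 and 2.05 for the heart tube against caudal-half tissue and yolk sac, and 0.19 for caudal-half tissue minus yolk sac.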

How the data were processed

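RNA of 6 samples was hybridised to 1 Affymetrix array each. The authors made the deposited signal intensity of each probe set by RMA (affy package), per the submitters' processing notes, which name no versions. Its natural log, 0.899 to 14.6, was taken as the RMA log2 value, since the highest signal (2172540) exceeds what a scanner gives. Of 45101 probe sets, 64 were controls and 34945 had 1 gene symbol in the platform annotation. A gene was represented by its probe set with the highest mean. A mean per tissue was estimated in limma 3.58.1 (R 4.3.3, lmFit and eBayes, 3 residual and 3.48 prior degrees of freedom) over all genes and 6 arrays, two-sided, with Benjamini-Hochberg adjustment and a threshold of 0.05. The number of arrays limits the precision (median SE 0.210). The code was tested on simulated data. The T-box genes, the 7 gene lists and the 8 marker lists were chosen with earlier results of these data known. From each list the genes named are among the 4 with the largest called difference per direction and comparison, besides Nkx2-5, Tnnt2, Wt1, Tcf21 and the sort markers, and Pitx1 and Mga, which were chosen after their values were seen. Alternatives were another probe set summary, a filter on weak genes, other variance models and scalings, a block and each array left out.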

Additional observations from a re-analysis of the deposited data

How the results depend on the processing

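With 2 arrays per tissue and 3 residual degrees of freedom, the differences of Tbx20 and Tbx1 that passed did so under all 14 alternatives run, and Tbx5 against yolk sac did too. Tbx5 against caudal-half tissue passed except without the first or the second heart tube array (range without single arrays 2.48 to 3.92, highest adjusted p 0.0867). Tbx2 and Tbx18 gave no value once weak genes were left out. Among the 14 alternatives, taking the log2 of the deposited signal only rescales every value, so it cannot change a call.

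The mean of all probe sets called 3 T-box genes lower in heart tube than in caudal-half tissue, 1 lower than in yolk sac and 2 higher in caudal-half tissue than in yolk sac, because Tbx3 passed at -0.86 and -0.75 and Tbx4 at -1.59 and 1.51. In that setting Tbx18 (caudal-half tissue minus yolk sac, -0.0522), Ttr (heart tube minus caudal-half tissue, -0.46) and Ptprc (caudal-half tissue minus yolk sac, -0.000953) changed sign without passing, and so did Pecam1 (0.0747) and Tcf21 (0.0654) for caudal-half tissue minus yolk sac with arrays centred on the median gene. A variance trend with robust estimation raised the genes called higher in caudal-half tissue than in yolk sac from 767 to 1214, and a fit of the compared tissues alone lowered them to 475. The causes were not tested, beyond the fewer arrays of the last.

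Without single arrays, the genes called ranged from 208 to 493 higher and 168 to 406 lower for heart tube minus caudal-half tissue (520 and 482 with all arrays), from 387 to 764 and 549 to 1030 for heart tube minus yolk sac (936 and 1214), and from 222 to 475 and 416 to 680 for caudal-half tissue minus yolk sac (767 and 885). T-box genes called ranged from 1 to 2 higher and 1 to 2 lower for heart tube minus caudal-half tissue. Differences ranged for Tbx3 from -2.35 to -0.81 and for Tbx2 from -0.21 to 1.29 in that comparison. For heart tube minus yolk sac they ranged from -0.12 to 0.42 for Tbx2, -1.30 to 0.24 for Tbx3, -0.54 to 0.0307 for Tbx4 and -0.0878 to 0.54 for Tbx1. For caudal-half tissue minus yolk sac they ranged from -1.14 to 0.36 for Tbx2, -0.33 to 1.11 for Tbx5 and -0.17 to 0.38 for Tbx18. Among uncalled differences whose sign turned, Wt1 ranged from -0.62 to 0.175 for heart tube minus caudal-half tissue, -1.32 to 0.129 for heart tube minus yolk sac and -1.10 to 0.35 for caudal-half tissue minus yolk sac, where Tcf21 ranged from -0.44 to 0.41, Nfatc1 from -0.56 to 0.58 and Pecam1 from -0.139 to 0.133.

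The same was done for the other probe sets of the T-box genes, an alternative chosen after seeing the data. For heart tube minus yolk sac the sign turned in Tbx3 1439567_at (-0.72 to 0.0777), Tbx3 1444594_at (-0.144 to 0.45), Tbx4 1456033_at (-0.26 to 0.46) and Tbx18 1449871_at (-0.0917 to 1.34). It also turned in Tbx3 1444594_at for heart tube minus caudal-half tissue (-0.52 to 0.075) and in Tbx3 1437479_x_at for caudal-half tissue minus yolk sac (-2.37 to 0.29).

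The deviations of samples with the same replicate number were hardly correlated between tissues (r = 0.0468, -0.00681 and 0.0189). Such a correlation cannot show a link that moves only some genes. Whether these samples share more than a number was not tested further than by the block. With the replicate number as a block the counts of T-box genes called were the same in all 3 comparisons, the differences had an adjusted p of 0.000962 (Tbx20), 0.0347 (Tbx5) and 0.0116 (Tbx1) for heart tube minus caudal-half tissue, and 400 genes were called higher and 376 lower there.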
